A study of Mus musculus with 6 samples.

Results

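The granzymes, perforin and their granule partners are described here in mouse leukaemia cells, as 8 genes out of the 53819 in the counts table: the granzyme genes Gzma, Gzmb, Gzmc, Gzmk and Gzmm, the perforin gene Prf1, the serglycin gene Srgn and the cathepsin C gene Ctsc. They were picked by symbol, with the levels in these libraries known. Gzmb was abundant in both groups while T cell receptor genes such as Trac were near 0 in WT. Those levels are therefore a description, and the members' differences between the groups are given with no test of their own. There are 3 libraries with the genotype SLC6A6 KO (KO1, KO2 and KO3) and 3 with the genotype SLC6A6 WT (WT1, WT2 and WT3). In both groups mice had received primary leukaemia cells with BCR-ABL and NUP98-HOXA9, a pair of fusion genes that together give a mouse counterpart of chronic myeloid leukaemia in blast crisis, and leukaemia cells were sorted from the spleen for RNA sequencing. The series title speaks of a knock-down and the labels of a KO. The sources used here do not give the allele, the sorting marker, the age of the mice or whether libraries came from separate mice. The p-values below therefore measure the spread between these libraries, which may be technical. Values of several libraries are listed in the order of their number.

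Granzymes are serine proteases that cytotoxic T cells and NK cells store in granules and release onto target cells, where perforin makes pores that let them into the cytosol. In the granule, granzymes and perforin are held by serglycin, a proteoglycan whose acidic sugar chains bind the basic proteases. Cathepsin C removes the dipeptide that keeps granzymes inactive, and does the same for the serine proteases of neutrophils and mast cells. Granzyme B cleaves after aspartate and is the member best known for starting apoptosis, and mouse mast cells can make it too.

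Library totals lay between 42829294 and 49537098 counts, and Slc6a6, the gene of the taurine transporter, was at 125 to 132 CPM in KO and 145 to 151 CPM in WT (edgeR adjusted p = 0.196), so its level does not check the genotype. CPM, the unit of all levels unless said otherwise, is the count scaled to a fixed library size after TMM scaling of the totals. Transcripts of 4 genes of the Y chromosome (Uty, Kdm5d, Ddx3y and Eif2s3y) had 10274 to 11236 counts in each KO library and 0 to 1 in each WT library, so genotype and sex-linked expression cannot be told apart in any comparison below. Across all 15232 genes tested, 3.56% passed edgeR's quasi-likelihood test at a Benjamini-Hochberg adjusted p below 0.05, 250 of them higher in KO (1.64%) and 293 lower (1.92%). Groups did not overlap in 28% of the tested genes. Of the 8 members, 7 were tested and 0 passed in edgeR, against 3 at an unadjusted p below 0.05 (3355 of the 15232 genes), 0 in limma-voom and 3 in DESeq2, where 13.1% of all genes passed. Groups did not overlap for 2 of the 7, Gzma and Ctsc. Because the members were chosen with this contrast in view, nothing is read from these counts.

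Gzmb, which encodes granzyme B, was among the most abundant transcripts of these cells. It was at 1130, 782 and 568 CPM across KO1 to KO3, against 470, 453 and 597 CPM across WT1 to WT3. KO1 was highest, KO3 lay below WT3, and the groups overlapped. The fitted log2 fold change was 0.71 ± 0.24 (SE, n = 3 against 3), or 1.63-fold, and it was 0.41 without KO1. Gzmc, the granzyme gene next to Gzmb in the cluster on chromosome 14, was at 0.225, 0.131 and 0.606 CPM in the KO libraries and at 0.238 CPM in WT1, with 0 counts in WT2 and WT3. The 250 bases before the RefSeq start of each gene are shown because these neighbours differ so widely in level, 1 highly expressed and 1 close to the limit of detection. They are from GRCm38.p6, both on the minus strand and written 5′ to 3′, for Gzmb chr14:56262335-56262584 and for Gzmc chr14:56234658-56234907. Capitals mark matches on either strand to TGANTCA (the AP-1 motif), TGTGGT (the RUNX core) and TGACGTCA (the cyclic AMP response element), which do not overlap here.
Gzmb: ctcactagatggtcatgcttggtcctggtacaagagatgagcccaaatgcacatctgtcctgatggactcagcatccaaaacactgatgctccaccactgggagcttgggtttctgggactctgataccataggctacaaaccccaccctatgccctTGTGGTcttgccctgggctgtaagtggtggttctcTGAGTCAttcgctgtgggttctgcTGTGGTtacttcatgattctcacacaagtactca
Gzmc: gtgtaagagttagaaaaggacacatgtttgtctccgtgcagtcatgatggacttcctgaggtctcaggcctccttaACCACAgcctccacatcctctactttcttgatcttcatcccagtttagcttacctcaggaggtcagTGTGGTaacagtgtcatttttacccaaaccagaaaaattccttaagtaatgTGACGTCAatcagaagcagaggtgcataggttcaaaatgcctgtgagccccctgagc
Both windows held 2 RUNX matches, whose first bases lay 93 and 34 bases before the start in Gzmb, and 174 and 108 bases before it in Gzmc. The AP-1 match was in the Gzmb window, 58 bases before the start, and the cyclic AMP response element in the Gzmc window, 57 bases before it. Of 32851 RefSeq promoter windows of this length, 6.75% held the AP-1 motif, 14% the RUNX core and 1.55% the cyclic AMP response element. The GATA motif AGATAA and the STAT motif TTCNNNGAA, held by 9.99% and 7.02% of the windows, had no match in either gene. These matches describe letters and not binding sites. GENCODE M21 puts the start of Gzmb 74 bases further downstream than RefSeq does, so its window is not at a settled start.

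**Figure D1:**
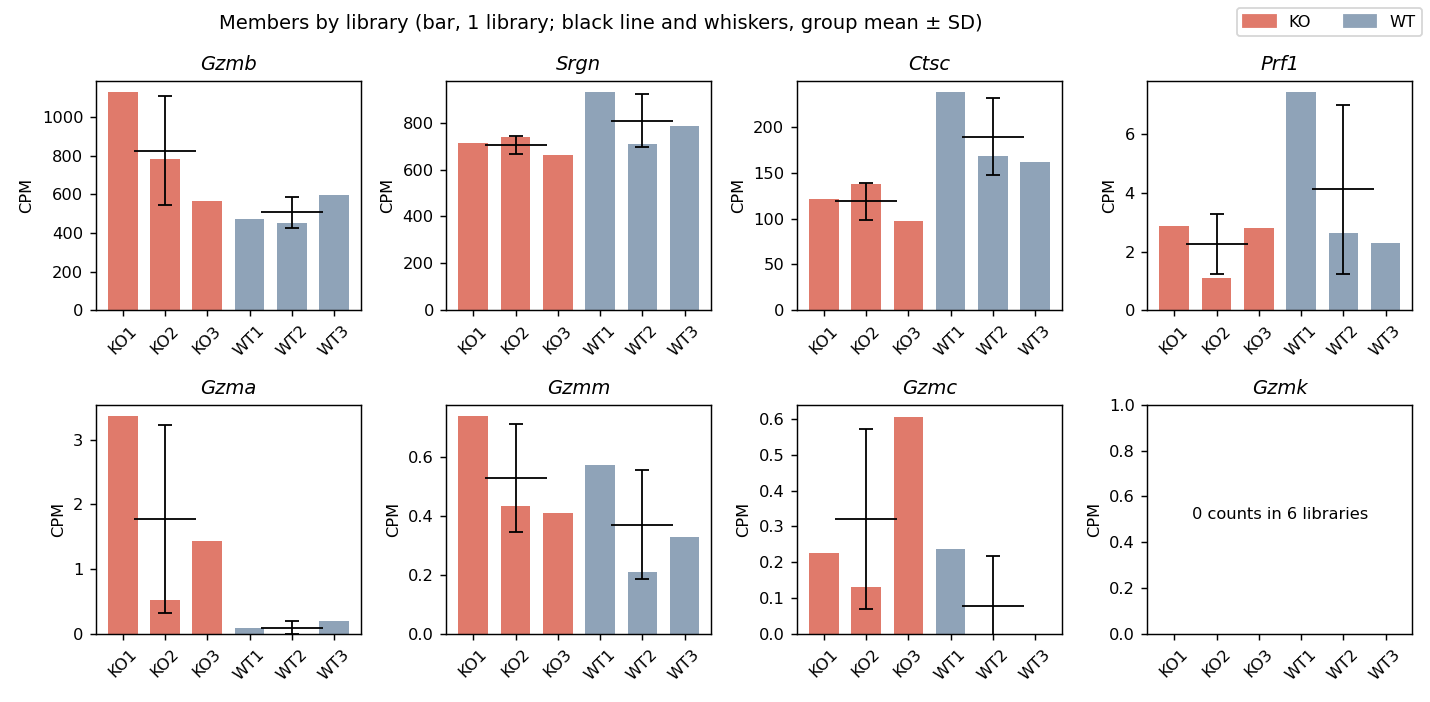
CPM of the 8 members (y axes, linear, a scale for each gene) in each library (x axis), with KO bars left of WT bars and black lines with whiskers for the group mean ± SD of 3 libraries. Gzmb spans 453 to 1130 CPM and the groups overlap, Ctsc is below WT in all 3 KO libraries, and Gzmk has 0 counts throughout.

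Per exon length, Gzmb and Srgn stood well above the other members. On the scale of counts per kilobase of exon per library of scaled size (the CPM divided by the length), Gzmb averaged 576 in KO and 353 in WT, and Srgn averaged 321 in KO and 368 in WT. Gzmb and Srgn did not differ beyond their spread within WT, where Gzmb ranged from 315 to 416 and Srgn from 324 to 424, while in KO the 395 to 789 of Gzmb lay above the 303 to 335 of Srgn. Ctsc followed at 20.4 in KO and 32.6 in WT. The other members were far below: Prf1 averaged 0.874 in KO and 1.59 in WT, Gzma 1.76 in KO and 0.0987 in WT, Gzmm 0.36 in KO and 0.253 in WT, and Gzmc 0.358 in KO and 0.0886 in WT. Prf1 and Gzma overlapped within KO, as did Gzmm and Gzmc within both groups, so their order is not fixed. By this measure Gzmb ranked 19, 44 and 73 across KO1 to KO3 and 91, 117 and 64 across WT1 to WT3, out of 49853 genes with a length in GENCODE M21. Reads of 100 bases could be told apart for all 8 members, since 0 of their 100-base windows occur in a GENCODE M21 transcript of another gene.

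**Figure D2:**
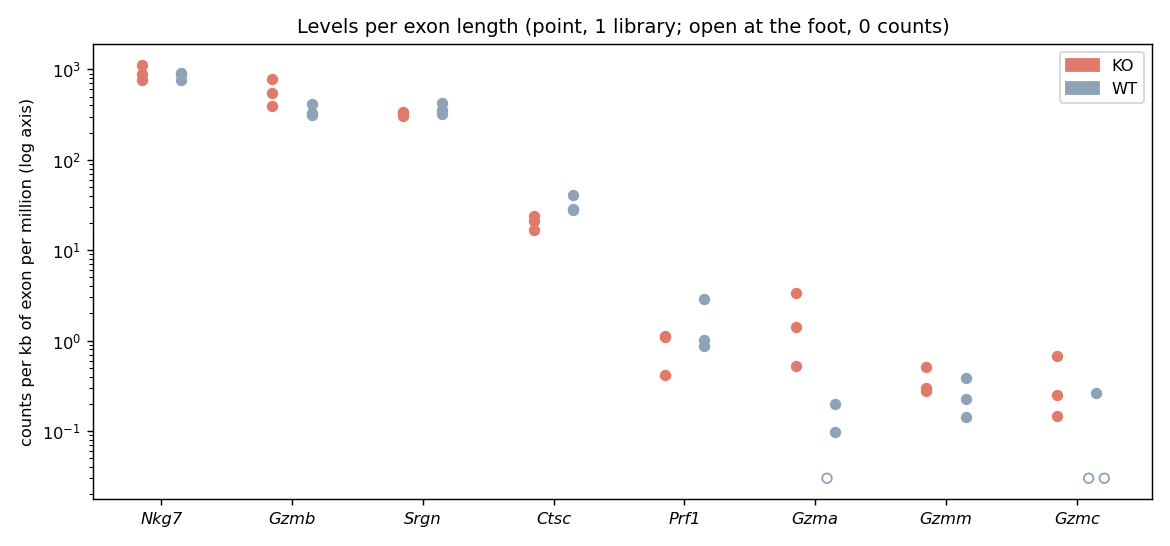
CPM per kilobase of exon (y axis, log scale) for 7 members with counts and for Nkg7, in KO (left of each pair) and WT (right), with 1 point per library and open points at the foot for libraries with 0 counts. Gzmb and Srgn lie between 303 and 789 in every library, while Prf1, Gzma, Gzmm and Gzmc are at 3.35 or less.

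Gzmb was set beside transcripts of T cells as a description. The 6 T cell receptor and CD3 genes Cd3d, Cd3e, Cd3g, Trac, Trbc1 and Trbc2 summed to 1026, 286 and 738 counts across KO1 to KO3, against 57, 29 and 31 counts across WT1 to WT3. For each count of these genes there were 49.1, 126 and 31.8 counts of Gzmb in the KO libraries, and 417, 742 and 871 in the WT libraries. The order of the libraries was not the same for both: KO3 had 17.9 CPM of T cell receptor and CD3 genes and 568 CPM of Gzmb, while KO2 had 6.22 and 782 CPM. The abundance of Gzmb and the near-0 level of these genes in WT were used in choosing the members. For this reason, and because most T cell markers passed the low-count filter through KO, their differences are a description with no test. Cd3e, a chain of the CD3 complex, had 128, 46 and 105 counts across KO1 to KO3, against 4, 0 and 0 counts across WT1 to WT3. The co-receptor gene Cd4, named after its values were seen, had 216 counts in KO and 0 in WT, at least 78.3-fold higher at a floor of 3 counts over the group. Summed over the whole list of 16 markers the range was 153 to 173 CPM in KO and 173 to 189 CPM in WT. Most of this was Lat, an adaptor also used outside T cells, at 124 ± 13.5 CPM in KO and 166 ± 8.55 CPM in WT. Lck, also on the list, was at 17.2, 10.7 and 13.8 CPM across KO1 to KO3. Across WT1 to WT3 Lck was at 12.3, 13 and 18.4 CPM, and the groups overlapped. In bulk RNA, fewer cells of a type and less RNA per cell cannot be told apart. In WT Gzmb was at 453 to 597 CPM, and the 6 T cell receptor and CD3 genes together were at 0.611 to 1.13 CPM. Trgc4, a T cell receptor gamma chain gene outside these 6, was higher, at 5.62, 1.37 and 4.37 CPM across WT1 to WT3. It was at 29.9, 9.44 and 12.2 CPM across KO1 to KO3, and is named because its pattern was near that of Gzma. The part of T cells in the levels of the members was not tested.

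Markers of NK cells were also scarce. They summed to 3.29 to 8.27 CPM in KO and to 2.65 to 7.78 CPM in WT, and 8 of 12 had 0 counts in all WT libraries, the NK receptor gene Ncr1 among them. All 12 had counts in KO. Of 5 tested, 0 passed in edgeR, 4 had an unadjusted p below 0.05 and DESeq2 called 3. Their log2 fold changes were positive in 4 and negative in 1 (median 3.3). Klrd1 and Klrc1 are among those that passed the low-count filter through KO, so this lean is a description. Klrb1c, the gene of the NK1.1 antigen in some strains, was at 1.17, 0.849 and 0.557 CPM across KO1 to KO3, against 6.06, 0.905 and 2.28 CPM across WT1 to WT3 (edgeR adjusted p = 0.191). Klrk1, which encodes the activating receptor NKG2D, was at 1.14 ± 0.579 CPM in KO and 0.0475 ± 0.0419 CPM in WT (SD, n = 3 each, edgeR adjusted p = 0.0563), and passed the low-count filter through KO. Cd160, a receptor of NK cells and some T cells, was at 0.674 to 2.35 CPM in KO and 0.265 to 1.83 CPM in WT, with overlapping groups (edgeR adjusted p = 0.903).

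**Figure D3:**
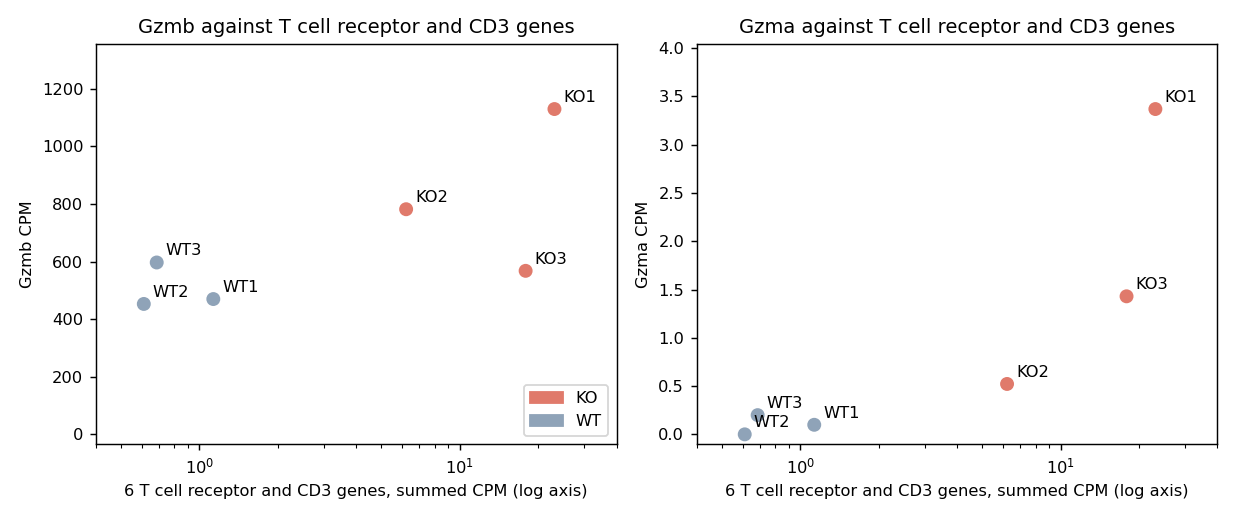
CPM of Gzmb (left, y axis) and Gzma (right, y axis) against the summed CPM of 6 T cell receptor and CD3 genes (x axes, log scale), with 1 labelled point per library. The KO libraries lie at 6.22 to 23.1 CPM on the x axis and the WT libraries at 0.611 to 1.13 CPM, while Gzmb is at 453 CPM or more in all 6.

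Gzma encodes granzyme A, a protease that cleaves after lysine or arginine. It was at 3.37, 0.522 and 1.43 CPM across KO1 to KO3, against 0.099, 0 and 0.199 CPM across WT1 to WT3. Each KO library was above each WT library, which held for 13.6% of the tested genes. Among the KO libraries the order KO1, KO3, KO2 was also that of the T cell receptor and CD3 genes, at 23.1, 17.9 and 6.22 CPM. The summed neutrophil markers had this order too, at 234, 49 and 16.8 CPM. Xist, a transcript of the X chromosome at 160 to 197 CPM in WT, also had it, at 4.41, 0.775 and 0.305 CPM. Summed B cell markers did not, at 105, 155 and 57 CPM in KO1, KO3 and KO2. The part of T cells or neutrophils in the Gzma level was not tested. The fitted log2 fold change was 4.13 ± 1.14 (SE, n = 3 against 3), and it rested on 14 counts in WT. Gzma passed the low-count filter through the KO group alone, so a difference in it was bound to appear.

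Gzmm encodes granzyme M, which prefers to cleave after methionine or leucine. It was at 0.742, 0.435 and 0.412 CPM across KO1 to KO3, against 0.574, 0.211 and 0.331 CPM across WT1 to WT3, and the groups overlapped. Gzmc had 41 counts in KO and 12 in WT, all 12 of them in WT1. Its fitted log2 fold change of 1.95 ± 1.40 (SE) became 6.84 without WT1, where the WT group was left at 0. Gzmk, the gene of granzyme K, a relative of granzyme A, had 0 counts in all 6 libraries, and 3 counts would have been 0.0594 to 0.0727 CPM. Among the 5 remaining granzyme genes of the chromosome 14 cluster, Gzmd, Gzme and Gzmf had 0 counts in every library. Gzmn had 5 counts, all in WT2. Gzmg had 0 counts in KO, against 54, 15 and 16 counts across WT1 to WT3, at least 26-fold lower in KO at a floor of 3 counts over the group. It passed the low-count filter through the WT group alone, so a difference in it was bound to appear, and no test of it is given. It shares 0.247% of its 100-base windows with another gene, Gzmd.

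Perforin transcripts were scarce beside those of Gzmb. Prf1 was at 2.88, 1.09 and 2.81 CPM across KO1 to KO3, against 7.44, 2.63 and 2.28 CPM across WT1 to WT3. WT1 stood above the other 5 libraries, which overlapped. The fitted log2 fold change of −0.87 ± 0.59 (SE, n = 3 against 3) was −0.14 without WT1. For each Prf1 count there were 393, 719 and 202 Gzmb counts in the KO libraries and 63.1, 172 and 262 in the WT libraries. WT1 was also the highest library for Srgn and Ctsc, and for the summed neutrophil markers, at 16.8 to 234 CPM in KO, 747 CPM in WT1 and 106 to 140 CPM in the other WT libraries. The same library was highest for Cst7, Ccl3, Il2ra and Serpina3f, described below. The part of neutrophils in these levels was not tested.

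Srgn, the gene of the granule proteoglycan serglycin, varied least among the members. Myeloid and mast cells store their granule proteases on it too. It was at 715, 737 and 664 CPM across KO1 to KO3, against 931, 711 and 784 CPM across WT1 to WT3. The groups overlapped, and the fitted log2 fold change was −0.20 ± 0.11 (SE, n = 3 against 3). Among 16 genes that build the sugar chains of proteoglycans 1 fell, 0 rose and 15 did not pass (median 0.08). The gene that fell was Chsy1, a chondroitin synthase, at 42.9, 43.3 and 39.8 CPM across KO1 to KO3, against 91.4, 57.7 and 77.5 CPM across WT1 to WT3 (log2 fold change −0.85 ± 0.17 SE, n = 3 against 3, edgeR adjusted p = 0.0462). Chpf, a partner in chondroitin chain extension, was at 11.1 ± 4.84 CPM in KO and 25.0 ± 7.11 CPM in WT (SD, n = 3 each, edgeR adjusted p = 0.132). Ext1, a heparan sulphate polymerase, was at 29.5 ± 6.98 CPM in KO and 19.8 ± 2.58 CPM in WT (edgeR adjusted p = 0.153).

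Ctsc, the gene of the protease that activates granzymes, was at 121, 138 and 97.6 CPM across KO1 to KO3, against 238, 168 and 162 CPM across WT1 to WT3. The highest KO library was below the lowest WT library, which held for 14.4% of the tested genes. The fitted log2 fold change was −0.67 ± 0.19 (SE, n = 3 against 3), 37.3% lower in KO, and it was −0.50 without WT1. Cst7 encodes cystatin F, an inhibitor that acts on cathepsin C inside granules. Cst7 fell to 122 ± 29.1 CPM in KO, against 296 ± 56.3 CPM in WT (SD, n = 3 each, log2 fold change −1.28 ± 0.20 SE, edgeR adjusted p = 0.027). Each KO library was below each WT library for both Ctsc and Cst7. Cst7 stayed past the test in 3 of 6 fits without 1 library.

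Of 8 other cathepsins and legumain 1 fell and 0 rose in edgeR (median 0.73, with 7 of 8 positive), against 1 lower and 3 higher in DESeq2. Ctsz, a lysosomal carboxypeptidase, was at 191 ± 4.95 CPM in KO and 243 ± 11.4 CPM in WT (SD, n = 3 each, edgeR adjusted p = 0.0479). That call ended with either other scaling, in limma-voom, with no filter and in each of 6 fits without 1 library, where the adjusted p reached 0.154. Ctsh, an aminopeptidase that can also activate granzyme B, was at 2.80 ± 1.35 CPM in KO and 0.323 ± 0.208 CPM in WT (SD, n = 3 each, edgeR adjusted p = 0.0607). Ctsh passed the low-count filter through KO. Ctss, a protease of antigen-presenting cells, was at 16.1, 3.15 and 4.87 CPM across KO1 to KO3, against 0.831, 0.969 and 1.13 CPM across WT1 to WT3 (edgeR adjusted p = 0.0546).

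Granule proteases of myeloid and mast cells, which cathepsin C also activates in part, moved in no common direction. Of 10 tested genes of the 14 listed, 2 rose, 0 fell and 8 did not pass (median −0.03). Mcpt2, a mast cell protease gene of the same chromosome 14 region, was at 6.18, 8.86 and 9.30 CPM across KO1 to KO3, against 2.38, 1.01 and 2.58 CPM across WT1 to WT3 (log2 fold change 2.03 ± 0.41 SE, n = 3 against 3, edgeR adjusted p = 0.0468). Mcpt4, a mast cell chymase named after its values were seen, had 225 counts in KO and 4 in WT (edgeR adjusted p = 0.0204) and passed the low-count filter through KO alone. Cma1, another chymase, was at 0.696 ± 0.418 CPM in KO and 3.62 ± 1.04 CPM in WT (SD, n = 3 each, edgeR adjusted p = 0.0771). Prtn3, the neutrophil proteinase 3, was at 4.51 ± 2.16 CPM in KO and 9.46 ± 5.57 CPM in WT, and the groups overlapped (SD, n = 3 each, edgeR adjusted p = 0.3). Mcpt genes resemble each other, and the sources used here do not say how the counting treated reads with several matches.

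The 10 genes of inhibitors that keep granule proteases in check summed to 1570 to 1840 CPM in KO and 1890 to 3640 CPM in WT. Much of this was Serpina3g, a serpin of blood cells named after its values were seen, at 830, 1010 and 799 CPM across KO1 to KO3, against 1970, 884 and 1160 CPM across WT1 to WT3, with overlapping groups. Of 9 tested serpin and cystatin genes Cst7 alone passed, downward (median −0.60). Serpina3f, a serpin of myeloid and lymphoid cells, was at 120, 101 and 116 CPM across KO1 to KO3, against 516, 176 and 220 CPM across WT1 to WT3 (edgeR adjusted p = 0.0906). Serpinb6b, a relative of the intracellular protease inhibitors, was at 29.8 ± 1.70 CPM in KO and 21.2 ± 2.93 CPM in WT (SD, n = 3 each, edgeR adjusted p = 0.106). Serpinb9, the inhibitor that shields cells from their own granzyme B and named after its values were seen, was at 25.0, 27.0 and 32.2 CPM across KO1 to KO3, against 26.8, 18.5 and 16.4 CPM across WT1 to WT3, with overlapping groups.

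Most genes for sorting and release of granules had counts in both groups, but Sytl2 and Syt7, named after their values were seen, had 0 counts in all WT libraries. Of 19 tested, 2 fell, 0 rose and 17 did not pass (median −0.07). Vamp8, a membrane fusion protein of granule exocytosis, was at 318, 323 and 320 CPM across KO1 to KO3, against 435, 432 and 430 CPM across WT1 to WT3. The libraries of each group were nearly level, with a log2 fold change of −0.43 ± 0.06 (SE, n = 3 against 3, edgeR adjusted p = 0.0204). Sytl1, a partner of the granule GTPase Rab27a, was at 5.19 ± 1.22 CPM in KO and 14.0 ± 2.01 CPM in WT (SD, n = 3 each, edgeR adjusted p = 0.0318). Igf2r, the large mannose 6-phosphate receptor that carries granzymes towards granules, was at 23.9 ± 5.48 CPM in KO and 13.1 ± 2.95 CPM in WT (edgeR adjusted p = 0.0969).

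**Figure D4:**
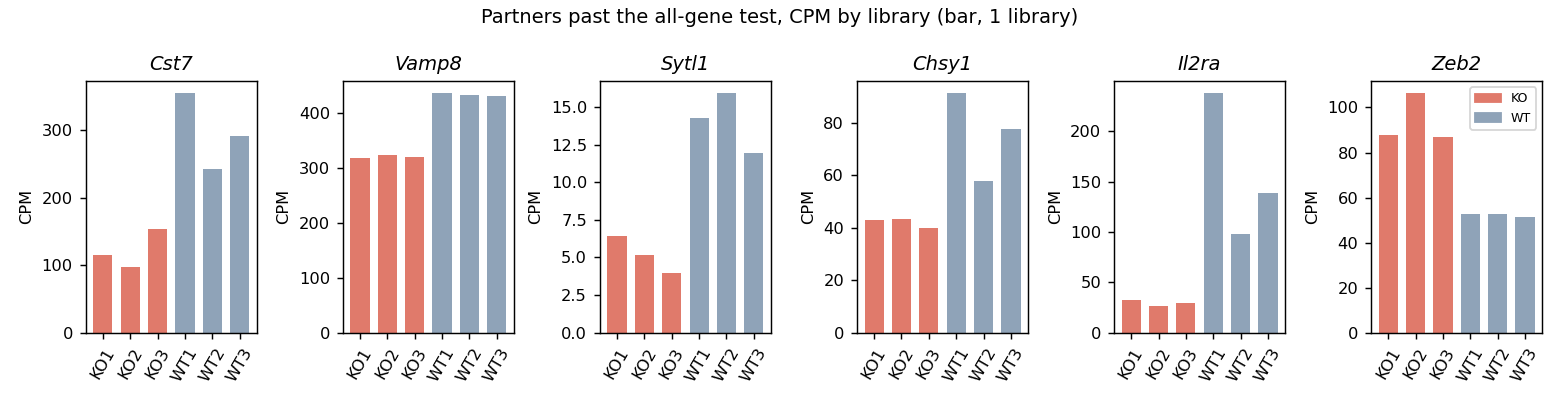
CPM (y axes, linear from 0) of 6 genes from the partner lists that passed the all-gene test, in each library (x axis), with KO bars left of WT bars. Vamp8 is nearly level within each group, at 318 to 323 CPM in KO and 430 to 435 CPM in WT, while Il2ra ranges from 98.2 to 238 CPM within WT.

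Of other effector genes of cytotoxic lymphocytes, Nkg7, a granule membrane protein and named after its values were seen, was in the range of Gzmb. It was at 700, 1030 and 804 CPM across KO1 to KO3, against 838, 690 and 821 CPM across WT1 to WT3, and the groups overlapped. Per kilobase it averaged 925 in KO and 857 in WT. Of 7 tested effector genes 1 fell and 0 rose (median −0.44). Ccl3, a chemokine of activated lymphocytes and myeloid cells, was at 0.360, 1.46 and 2.18 CPM across KO1 to KO3, against 33.9, 7.85 and 14.7 CPM across WT1 to WT3 (edgeR adjusted p = 0.0479). Its relative Ccl4 was between 1.12 and 2.71 CPM in KO and between 2.25 and 12.5 CPM in WT (edgeR adjusted p = 0.162). Tnfsf10, the gene of the death ligand TRAIL, was at 11.5 ± 3.07 CPM in KO and 4.57 ± 2.02 CPM in WT (edgeR adjusted p = 0.0954).

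Among 19 tested transcription factors and cytokine receptor genes of the cytotoxic programme 3 rose, 1 fell and 15 did not pass (median 0.11). Il2ra, the alpha chain of the receptor for interleukin 2, a cytokine that induces granzyme B in T cells, was at 32.1, 26.5 and 29.7 CPM across KO1 to KO3, against 238, 98.2 and 139 CPM across WT1 to WT3. Its log2 fold change was −2.43 ± 0.31 (SE, n = 3 against 3, edgeR adjusted p = 0.0171). Il2rb, the beta chain shared with the interleukin 15 receptor, was at 5.94 ± 3.35 CPM in KO, against 0.331 ± 0.184 CPM in WT (SD, n = 3 each, edgeR adjusted p = 0.0247). Zeb2, a repressor that acts in terminal effector T cells and in myeloid cells, was at 87.8, 106 and 86.7 CPM across KO1 to KO3, against 52.5, 52.9 and 51.2 CPM across WT1 to WT3 (edgeR adjusted p = 0.0165). Tcf7, a transcription factor of T cells, was at 6.66, 1.15 and 3.58 CPM across KO1 to KO3, against 0.396, 0.147 and 0.155 CPM across WT1 to WT3 (edgeR adjusted p = 0.0436). Il2rb and Tcf7 passed the low-count filter through KO, so their rises are a description. The order KO1, KO3, KO2 of Tcf7 was again that of the T cell receptor and CD3 genes, and also that of the summed neutrophil markers. The part of either cell type was not tested. Tbx21, the T-bet gene and named after its values were seen, had 104 counts in KO and 3 in WT and was not tested.

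Those calls changed when single libraries were left out, which also leaves fewer libraries to compare. Over the lists other than the members, T cell markers included, 16 of 149 genes tested in edgeR rose and 8 fell, with 11 and 5 in limma-voom and 35 and 22 in DESeq2. Without WT3 the numbers in edgeR were 0 and 0 (68 at an unadjusted p below 0.05). They were 1 and 0 without KO1, and 1 and 1 without KO3. They were 6 and 4 without WT1, 5 and 4 without WT2, and 16 and 6 without KO2. Zeb2 passed in 5 of these 6 fits, and Cst7, Il2ra and Hdc in 3 each. Vamp8 passed in 2, Chsy1 in 1, and Mcpt2, Ctsz, Sytl1, Ccl3 and Kit in 0. Il2rb passed in 2 and Tcf7 in 1, but both passed the low-count filter through KO, so nothing is read from these 2 counts.

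**Figure D5:**
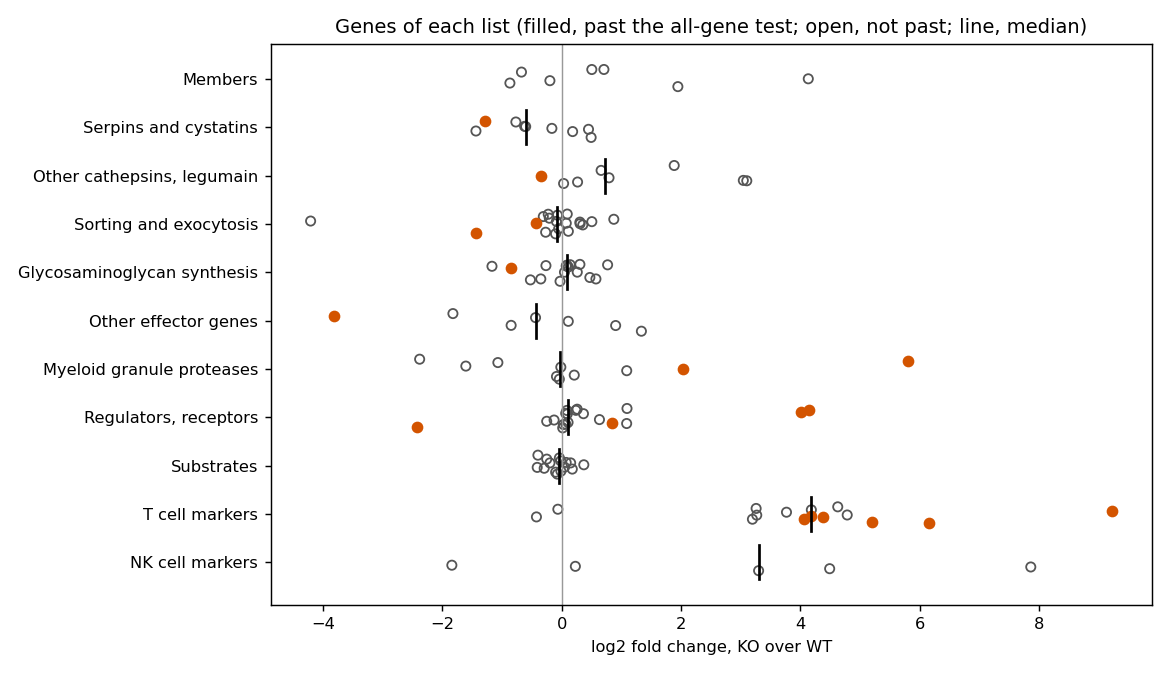
Fitted log2 fold change, KO over WT (x axis), of each tested gene in 11 lists (rows), filled where the gene passed edgeR's test over all genes and open where it did not, with a black line at the median of each list other than the members. The members are all open, and the medians of the lists of partners lie between −0.60 and 0.73. Where a group has 0 counts the plotted value depends on the fit and is no bound.

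Mast cells and basophils carry granule proteases too, and some of their transcripts were present. Of 12 markers Tpsb2, a mast cell tryptase, had 0 counts in all libraries and Fcer1a, the IgE receptor alpha chain and named after its values were seen, averaged 0.504 CPM in KO and 0.178 CPM in WT. Other markers, also named after their values were seen, had more. Ms4a2 was at 41.6, 6.14 and 6.78 CPM across KO1 to KO3, against 12.4, 3.81 and 10.2 CPM across WT1 to WT3. Mcpt8, Prss34 and Cpa3 averaged 12.4, 9.3 and 3 CPM in KO, and 5.81, 9.37 and 3.08 CPM in WT, with overlapping groups. Of 11 tested, Kit and Mcpt4 rose and Hdc fell (median 0.11). Their sum of 649 to 953 CPM in KO and 621 to 829 CPM in WT came mostly from Gata2, a factor also of blood progenitors, at 687 ± 151 CPM in KO and 638 ± 74.5 CPM in WT (SD, n = 3 each). Kit, the stem cell factor receptor, was at 65.0 ± 17.8 CPM in KO and 17.9 ± 7.86 CPM in WT (edgeR adjusted p = 0.045). Hdc, the histamine-forming enzyme, was at 14.5 ± 3.62 CPM in KO and 53.8 ± 23.6 CPM in WT (edgeR adjusted p = 0.0344). B cell markers summed to 57.0 to 155 CPM in KO and to 5.44 to 39.7 CPM in WT, and Cd79b, a part of the B cell receptor, was at 2.90 ± 0.769 CPM in KO and 0.563 ± 0.0608 CPM in WT (SD, n = 3 each, edgeR adjusted p = 0.0268). Of 4 tested markers of plasmacytoid dendritic cells 1 rose, Ly6d, named after its values were seen, which passed the low-count filter through KO. The defining marker of these cells, Siglech, had 4 counts in KO and 0 in WT. The part of these cells in the members' levels was not tested.

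The genes most like 3 members in pattern were ranked by the root mean square difference of centred log2 CPM over the 6 libraries, among 9844 genes with a mean of at least 5 CPM. Nearest to Gzmb were Pfkfb2, a regulator of glycolysis, Rnd2, a small GTPase, and Zfp945, a zinc finger gene, at differences of 0.138, 0.156 and 0.166. Pfkfb2, for example, was at 9.58, 5.79 and 4.99 CPM across KO1 to KO3, against 4.45, 3.29 and 5.30 CPM across WT1 to WT3. Nearest to Gzma were Scml4, Sdc3 and Trgc4, the last a constant region of the gamma chain of the T cell receptor, at 0.526, 0.558 and 0.609. Nearest to Ctsc were Slc7a6, an amino acid transporter, Phf21a, a chromatin reader, and Gca, the gene of grancalcin, a calcium-binding protein of neutrophil granules, at 0.0756, 0.0955 and 0.102. These values describe 6 libraries that share their depth and scaling and carry no test.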

How the data were processed

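The authors deposited unnormalised read counts, as whole numbers, in 1 table of 53819 genes, with a column for each of 6 libraries. Tools named in the submitters' processing notes are STAR 2.7.9a, fastp 0.23.1, featureCounts and Subread 2.0.1. No source used here gives their parameters, the genome build or the annotation. Per the labels' protocols, RNA was pre-amplified from small input with a SMARTer kit and sequenced as single-end reads of 100 bases. No molecular identifiers are named, so floors cover counting error only. The chemistry does not mark strand, but GENCODE M21 lists no gene that overlaps an exon of a member. A floor of 3 counts was 0.0594 to 0.0727 CPM.

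Counts were filtered with filterByExpr (minimum count 10, total 15), scaled by TMM and compared with edgeR 4.0.16 under R 4.3.3 (quasi-likelihood F test, robust, no covariate, Benjamini-Hochberg over 15232 genes, threshold 0.05). Alternatives used limma 3.58.1 and DESeq2 1.42.0, other scalings and filters, the replicate number as a block and each library left out. The edgeR fit was first tested on simulated data, with the same dispersion for every gene. It recovered 0% of 67 genes changed 1.5-fold, 10.4% of 67 changed 2-fold and 81.8% of 66 changed 4-fold, with 5 false calls. A gene that did not pass is therefore not shown to be unchanged. Exon lengths are from GENCODE M21 (92.6% of rows) and promoters from RefSeq (GRCm38.p6; 8 of 8 members matched).

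The members and lists were chosen with earlier results of these data known. All members were named. From each list the genes past the threshold, or the 3 of smallest p, averaging 1 CPM or more, were chosen, and from marker lists also the 3 most abundant. Not all marker genes so chosen are described here, and Tcf4 and Irf8 are among those left out. The 3 genes most like Gzmb, Gzma and Ctsc (at least 5 CPM, pseudocount 0.1) were named too. Vamp7 had no row under that symbol. The test result of 1 list is not reported here. Libraries of a group differed by more than sampling noise (chi-square per degree of freedom 32.8 to 113).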

Additional observations from a re-analysis of the deposited data

How the results depend on the processing

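No tested member changed the sign of its log2 fold change under the 13 alternatives that gave a value (12 for Gzma, Gzmc and Gzmm, which the filter of 1 CPM in 3 libraries removed). Gzmb ranged from 0.41 to 0.91, Ctsc from −0.80 to −0.50, Srgn from −0.28 to −0.10, Prf1 from −1.16 to −0.14, Gzma from 3.27 to 5.07, Gzmm from 0.18 to 0.94 and Gzmc from 1.12 to 6.84, with 3.14 in limma-voom and 2.89 under the block. The counts of all genes higher and lower, 250 and 293, ranged from 13 to 371 and from 29 to 247 without 1 library, and were 1075 and 920 in DESeq2. With the replicate number as a block they were 8 and 20, and among the genes of the lists 0 and 1. Same-numbered libraries did not deviate together (correlations 0.0425, −0.277 and −0.0886 for numbers 1, 2 and 3), and not every library correlated best with its own number, so they share only a number. The cause of these changes was not tested. A fit without 1 library also has fewer libraries, and the part of that was not told apart. Genes that did not pass and changed sign without 1 library were Lck (from −0.25 to 0.13, positive without KO2 or WT3), Cd160 (from −0.29 to 0.61, negative without KO3 or WT3), Gata2 (−0.06 without KO2), S100a8 (from −2.88 to 0.26, positive without WT1), S100a9 (from −2.13 to 0.70, positive without WT1) and Bst2 (from −0.45 to 0.02, positive without KO3). Depth limits Gzmc, Gzmk, Gzmm and, in WT, Gzma, which are near the floor of 3 counts.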

Other observations

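Of 16 genes on the target side of the granzyme pathway, Trex1 had 0 counts in all libraries. Of 15 tested substrates and their partners 0 passed edgeR's test (median log2 fold change −0.04), 5 had an unadjusted p below 0.05 and DESeq2 called 3. Bid, a death protein that granzyme B cleaves, was at 58.6 ± 4.93 CPM in KO and 77.9 ± 4.36 CPM in WT (SD, n = 3 each, edgeR adjusted p = 0.0716). Nme1, a DNA-nicking enzyme of the SET complex that granzyme A acts on, was at 276 ± 20.7 CPM in KO and 363 ± 20.0 CPM in WT (edgeR adjusted p = 0.0538). Hmgb2, another member of that complex, was at 614 ± 38.2 CPM in KO and 475 ± 52.7 CPM in WT (edgeR adjusted p = 0.0915). Neutrophil markers, of which 9 were tested and 0 passed (3 at an unadjusted p below 0.05, 2 in DESeq2), differed in both directions. Ngp, a neutrophil granule protein, was at 5.96, 0.087 and 0.896 CPM across KO1 to KO3, against 290, 55.9 and 41.4 CPM across WT1 to WT3 (edgeR adjusted p = 0.0653). Camp and Ltf, of the same granules, were also lower in each KO library than in each WT library, with edgeR adjusted p of 0.112 and 0.149. Such a separation held for 14.4% of the tested genes. Ngp and Camp passed the low-count filter through WT, so their differences are a description. Cxcr2, a chemokine receptor named after its values were seen, was at 7.58, 0.261 and 2.23 CPM across KO1 to KO3, against 0.653, 0.0211 and 0.486 CPM across WT1 to WT3 (edgeR adjusted p = 0.23). Cxcr2 passed the low-count filter through KO, so its difference is a description too. S100a8 was at 83.6, 4.72 and 18.9 CPM across KO1 to KO3, against 201, 34.4 and 24.7 CPM across WT1 to WT3.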
